A study of Mus musculus with 19 samples.

Results

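Circadian clock genes were followed across sorted hippocampal cells of mice with and without Alzheimer-type transgenes. The set held 10 genes, Arntl (Bmal1), Clock, Per1, Per2, Per3, Cry1, Cry2, Nr1d1 (Rev-erb alpha), Nr1d2 (Rev-erb beta) and Dbp, chosen as the rows of the expression table that carry these symbols, out of 60567 genes listed and 25896 with a symbol. All 10 were found, and all 10 passed the filter on low levels in every comparison. The samples came from the hippocampus of male C57bl6 mice aged 9 months, each injected earlier in CA1 with an AAV2/9 vector whose gfaABC1D promoter drives its cargo in astrocytes. GFP+ astrocytes were sorted from wild-type mice that received GFP (WT-GFP, n = 7), from APP/PS1dE9 mice that received GFP (APP-GFP, n = 4) and from APP/PS1dE9 mice that received SOCS3 together with GFP (APP-SOCS3, n = 5), where SOCS3 is an inhibitor of JAK-STAT3 signalling. The fourth group (n = 3) held the GFP- cells of WT-GFP mice, a mixture that takes in microglia, neurons, oligodendrocyte precursor cells and astrocytes that the vector did not reach. Mice lived under a light-dark cycle, and neither the labels nor the methods give the hour at which each was killed. An effect of the hour on a group comparison cannot be told apart from one of genotype, vector or cell type. Per the methods, the left and right hippocampus of a mouse were sorted separately, and the labels do not tie samples to mice. Where samples of one group shared a mouse the p-values are too small, and where GFP+ and GFP- cells came from one mouse an unpaired test can give p-values that are too large.

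The mammalian clock is a loop of transcription that runs in nearly every cell, astrocytes included. ARNTL and CLOCK pair and bind E-box sequences, which turns on the Per and Cry genes, whose proteins return to the nucleus and block that pair. The same pair drives the REV-ERB repressors, which act on Arntl through ROR elements, and Dbp, an activator that acts on D-box sequences of output genes. In a tissue sampled around the clock, Arntl peaks at the opposite phase to Dbp and the REV-ERB genes.

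Promoter sequences are shown for members whose RNA differed between astrocytes and GFP- cells and whose promoter held one of the searched words. RefSeq (GRCm38.p6, the release of mm10) gave a promoter entry for 9 of the 10 members, all but Per2, and the 250 bases upstream of the start nearest to the one in the deposited table were searched on both strands. The words were the E-box CACGTG, its variant CACGTT (the E'-box), the D-box TTATGTAA or TTACGTAA, the ROR element TAGGTCA or TGGGTCA and the cAMP response element TGACGTCA. The E-box and the E'-box cannot match at the same bases. Bases that match are in capitals, read 5′ to 3′ on the strand of the gene, and bases that fall in an annotated exon were left out. Nr1d1 lies at chr11:98775378-98775627 (minus strand), Cry2 at chr2:92434070-92434319 (minus strand), Per3 at chr4:151044666-151044915 (minus strand) and Per1 at chr11:69098699-69098947 (plus strand).
Nr1d1: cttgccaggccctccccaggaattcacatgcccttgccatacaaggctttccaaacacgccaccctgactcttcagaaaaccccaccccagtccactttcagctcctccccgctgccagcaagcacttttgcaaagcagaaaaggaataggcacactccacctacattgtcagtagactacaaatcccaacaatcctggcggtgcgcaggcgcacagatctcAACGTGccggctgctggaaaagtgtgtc
Cry2: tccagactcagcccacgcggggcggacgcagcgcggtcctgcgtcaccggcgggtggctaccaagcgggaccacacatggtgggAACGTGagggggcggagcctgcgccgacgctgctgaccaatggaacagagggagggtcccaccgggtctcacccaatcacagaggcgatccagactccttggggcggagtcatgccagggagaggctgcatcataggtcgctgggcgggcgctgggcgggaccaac
Per3: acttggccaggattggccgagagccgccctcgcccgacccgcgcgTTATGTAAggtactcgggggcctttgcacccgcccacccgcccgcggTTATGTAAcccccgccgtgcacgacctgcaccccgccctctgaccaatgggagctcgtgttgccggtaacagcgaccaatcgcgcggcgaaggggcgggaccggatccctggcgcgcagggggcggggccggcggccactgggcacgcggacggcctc
Per1: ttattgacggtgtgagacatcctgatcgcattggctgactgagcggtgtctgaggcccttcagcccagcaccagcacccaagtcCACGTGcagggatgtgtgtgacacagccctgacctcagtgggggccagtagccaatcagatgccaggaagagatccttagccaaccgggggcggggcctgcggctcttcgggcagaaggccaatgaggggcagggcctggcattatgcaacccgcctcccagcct
Nr1d1 carried an E'-box that began 28 bases upstream of its start, and Cry2 carried an E'-box that began 166 bases upstream. Per3 carried a pair of D-boxes, 205 and 158 bases upstream. Per1 carried an E-box 166 bases upstream of a RefSeq start that lies 3697 bases inside the gene as the deposited table places it. Cry1, not printed, held an E-box at 60 and an E'-box at 79 bases upstream. No searched word stood in these windows of Arntl, Clock, Nr1d2 or Dbp, and no member held a ROR element or a cAMP response element there. Across 32851 RefSeq mouse promoters of the same length, 6.02% held an E-box, 3.85% an E'-box and 0.931% a D-box, so the D-box of Per3 is the rarest of the words found.

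The libraries held 19331876 to 32621917 reads counted in genes. In GFP+ libraries 15575 to 26757 genes had a read, against 30807 to 31897 in GFP- libraries. In all, 3 GFP+ libraries stood apart. WT-GFP replicates 2 and 3 and APP-GFP replicate 2 detected 18107, 15575 and 16471 genes, and their median correlation with the other GFP+ libraries was 0.686, 0.694 and 0.658, against 0.801 to 0.889 in the rest. Results that rest on them are given with and without them. All 10 astrocyte markers were higher in WT-GFP astrocytes than in GFP- cells, and their summed level was 1280.4% to 2151% of the mean of the GFP- cells. All 10 microglia markers were lower, at a summed 6.97% to 24.3%, and all 10 endothelial markers were lower, at 2.06% to 20.8%. All 8 mural and all 6 oligodendrocyte precursor markers and 8 of 10 neuron markers were also lower. Oligodendrocyte markers went both ways, with 2 higher and 2 lower of 7 tested, and their summed level was 168% to 240% of the GFP- mean in WT-GFP and reached 658% in an APP-GFP library. Itgam was at 0 in 2 and Tie1 and Tek in 1 of the WT-GFP libraries. Socs3 ran from 13296 to 37750 normalized reads in APP-SOCS3 and from 438 to 1639 in the other GFP+ samples, and from 10319.7 to 17689 in GFP- cells.

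**Figure D1:**
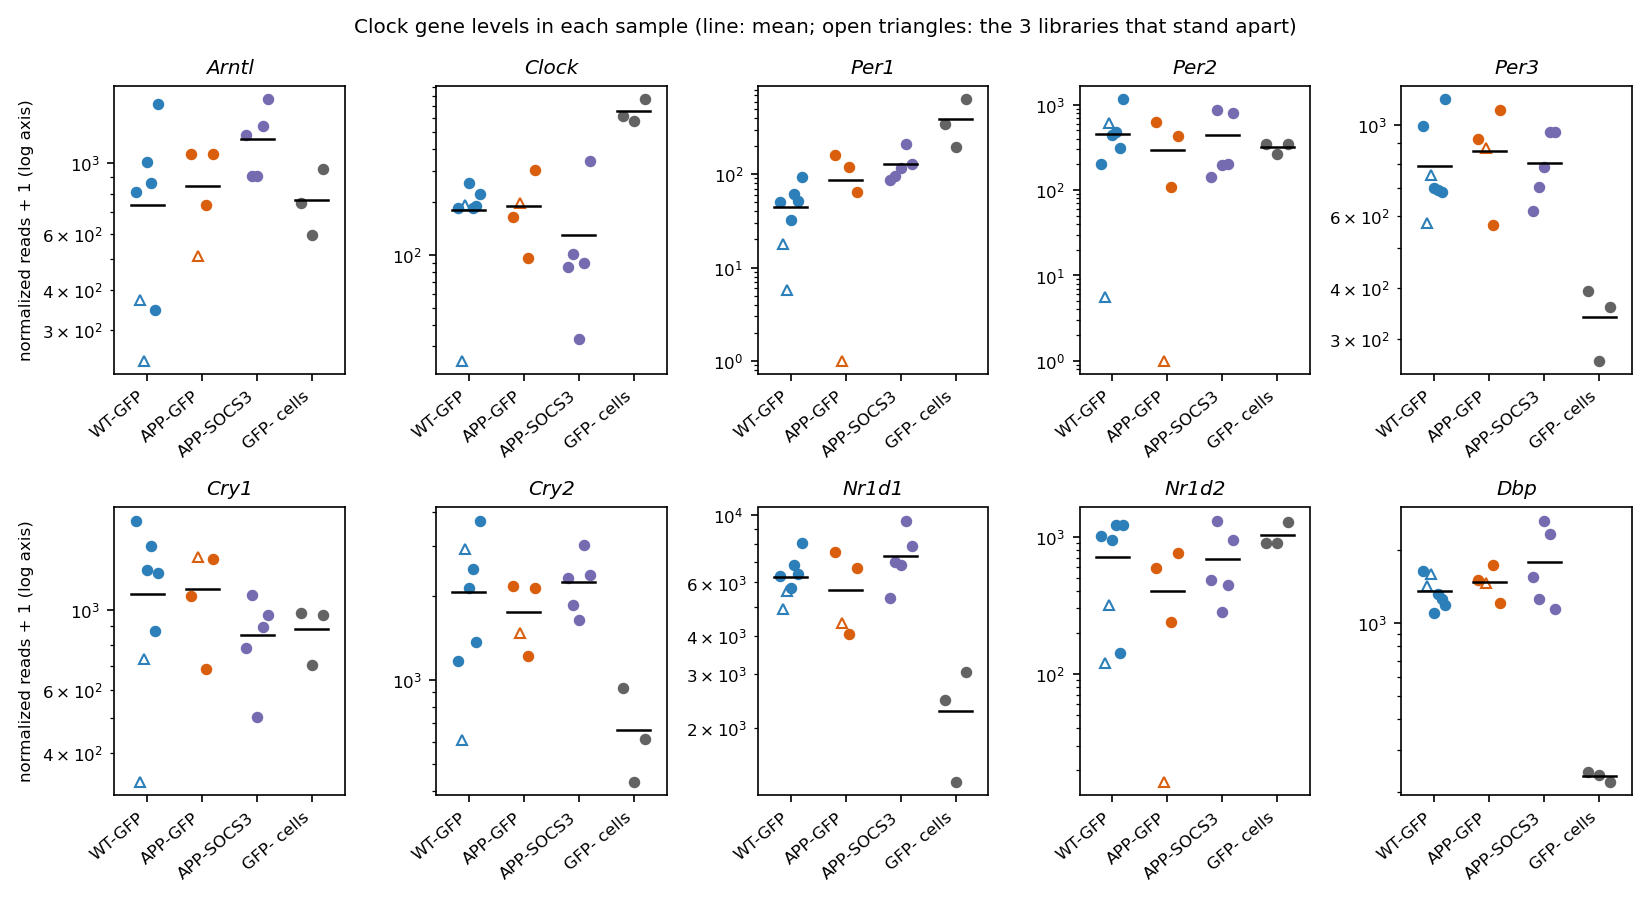
Normalized reads plus 1 (log axis) of each clock gene in every sample of the 4 groups. Lines mark group means and open triangles the 3 libraries that stand apart. Dbp, Nr1d1 and Per3 lie higher in every WT-GFP sample than in any GFP- sample, and Clock and Per1 lie lower.

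Levels are normalized reads, the authors' counts scaled between libraries. Genes can be compared only per length, and the authors counted reads on constitutive exon regions whose lengths were not used here, so levels were divided by 2 lengths from GENCODE M21, all exon bases of the coding transcripts and the exon bases that all of them share. The order of the members depended on that choice. In WT-GFP astrocytes Nr1d1, with 1 coding transcript, stood at 2304 ± 375 normalized reads per kilobase by either length (SD, n = 7), first by all exon bases and second by shared bases. Cry1, whose transcripts share only 177 bases, stood at 366 ± 162 per kilobase by all exon bases and at 6259 ± 2772 by shared bases. Dbp stood at 739 ± 110 and 1191 ± 178 per kilobase, and Cry2 at 474 ± 250.2 and 1147 ± 605. At the low end Clock stood at 18.0 ± 7.36 and 32.4 ± 13.3 per kilobase, and Per2, with 1 coding transcript, at 78.6 ± 63.2. Per1 was last by all exon bases, at 7.74 ± 5.14 per kilobase, and stood at 99.3 ± 65.9 by the 439 shared bases. Nr1d1 lay above Dbp and Dbp above Arntl, Per3, Per2 and Clock by both lengths.

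The first comparison asked which clock genes set astrocytes apart from the rest of the hippocampal cells. Dbp, Nr1d1, Per3 and Cry2 were higher in WT-GFP astrocytes than in GFP- cells, and Clock and Per1 were lower. A gene was called where the limma p-value was 0.05 or lower and the fold change 1.5 or more, on log2(level + 1). That scale can shrink or widen changes of low genes. Per1, for one, differed by -3.38 in limma and by -2.86 in edgeR, a test on read counts. The members called were 6 of 10, against 42.8% of all 26709 genes tested, with 4 higher against a background of 9.25% and 2 lower against 33.5%. The median difference of the members was -0.06 on the log2 scale, beside -1.31 over all genes. In these bulk samples fewer cells of a type and less RNA per cell cannot be told apart.

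Dbp, the D-box activator and a standard read-out of the loop, had the lowest p-value of the members. It lay at 1102, 1318 and 1633 normalized reads (lowest, median and highest) in WT-GFP astrocytes, and at 243, 236 and 219 in the GFP- samples. All 7 astrocyte samples were above all 3 GFP- samples, and the spread within both groups was small, with a coefficient of variation of 14.9% and 5.23%. The difference was 2.53 ± 0.21 on the log2 scale (SE, n = 7 and 3, limma adjusted p = 9.02e-06), or 5.84-fold in means. An exact two-sided permutation test gave p = 0.0167, the smallest that 7 against 3 samples allow. Dbp overlaps 737 bases of Sphk2 on the opposite strand, and the library kit is not stated to keep the strand, so reads of the pair cannot be told apart there. The level of Sphk2 was 305 ± 138 normalized reads in WT-GFP and 492 ± 30.3 in GFP- cells.

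Nr1d1 encodes the repressor that closes the loop on Arntl. In WT-GFP astrocytes it ran from 4906 through a median of 6292 to 8080.3 normalized reads, and in GFP- cells it was 2462, 1322 and 3043. No astrocyte sample came as low as the highest GFP- sample. The log2 difference was 1.53 ± 0.25 (SE, limma adjusted p = 0.000803, exact permutation p = 0.0167). Its 1074 shared bases with Thra on the other strand carry the limit given for Dbp. Nr1d2, the paralogue with the same role, went from 118 through 946 to 1213 normalized reads in WT-GFP and was 894, 899 and 1289 in GFP- cells. The range of the astrocytes took in most of that of the GFP- cells, and the difference of -1.02 ± 0.79 did not pass (limma adjusted p = 0.335).

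The Per genes encode the proteins that, with CRY, inhibit the ARNTL and CLOCK pair, and they did not move together. Per3 lay at 575, 699 and 1153 normalized reads (lowest, median and highest) in WT-GFP and at 393, 265 and 359 in GFP- cells. It was higher in every astrocyte sample, by 1.21 ± 0.28 on the log2 scale (limma adjusted p = 0.00723, exact permutation p = 0.0167). In GENCODE Per3 lies within Camta1 on the same strand over 41012 bases, whereas neither of the 2 Camta1 entries of the deposited table overlaps it. Per1, which is also an early-response gene that light, neuronal activity and glucocorticoids can induce, went the other way. Its levels were 4.71, 49.3 and 91.4 normalized reads (lowest, median and highest) in WT-GFP, from 4 to 81 reads in a library, and 345, 194 and 636 in GFP- cells. Every astrocyte sample was below every GFP- sample, with a difference of -3.38 ± 0.88 (limma adjusted p = 0.0146, exact permutation p = 0.0167). All 15 immediate early genes examined beside Per1 were lower too, where 33.5% of all genes were. Their summed level in WT-GFP was 6.15% to 11.8% of the GFP- mean. Their part in the value of Per1 was not tested. Per2 spread from 4.54 to 1163 normalized reads in WT-GFP, on both sides of the 265 to 347 of the GFP- cells, and did not pass (-0.37 ± 1.33, limma adjusted p = 0.841).

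Cry2, a cryptochrome of the repressor complex, was 608, 2131 and 3711 normalized reads (lowest, median and highest) in WT-GFP and 932, 428 and 614 in GFP- cells. In 6 of 7 astrocyte samples Cry2 lay above all GFP- samples, and WT-GFP replicate 2 lay among them. The difference of 1.503 ± 0.51 on the log2 scale passed with a limma adjusted p of 0.0449, and the exact permutation p was 0.05. Without GFP- replicate 2 the call of Cry2 was lost (1.23 ± 0.61, limma adjusted p = 0.177). Over 23417 bases Cry2 overlaps D930015M05Rik on the opposite strand, with the limit given for Dbp, and that gene was listed at 164 ± 81.3 normalized reads in WT-GFP and 47.3 ± 11.3 in GFP- cells (SD). Cry1, its paralogue, ranged from 332 to 1766 normalized reads in WT-GFP and from 700.2 to 981 in GFP- cells, and its difference of 0.18 ± 0.46 did not pass (limma adjusted p = 0.780).

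Of the activating pair, Clock was lower in astrocytes and Arntl did not differ beyond the spread. Clock lay at 23.8, 189 and 256 normalized reads (lowest, median and highest) in WT-GFP and at 620, 576 and 769 in GFP- cells. Every WT-GFP sample lay below every GFP- sample, and the difference was -2.11 ± 0.66 on the log2 scale (limma adjusted p = 0.0315, exact permutation p = 0.0167). Arntl lay at 240.1, 812 and 1524 normalized reads in WT-GFP and at 750.3, 594 and 956 in GFP- cells. The astrocytes stood on both sides of the GFP- cells, with a difference of -0.29 ± 0.54 and a 95% interval from -1.48 to 0.90 (limma adjusted p = 0.695).

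Groups did not overlap for 5 of the 10 members, against 34.8% of all genes. On whole reads recovered from the table, edgeR and DESeq2 called the same 6 members in the same directions, beside 32.2% and 33.5% of all genes. Over all genes limma called 2471 higher and 8948 lower, edgeR 3323 and 5265, and DESeq2 3173 and 5784. In edgeR the median difference was 0.71 for the members and -0.37 over all genes, and Clock and Per1 remained below it at -1.60 and -2.86. Without the 3 libraries that stand apart, the same 6 were called, with Cry2 at 1.67, Clock at -1.66 and Per1 at -2.69 on the log2 scale, against 46.1% of all genes. With the mean level of microglia markers as a covariate, SEs were larger, and calls were left for 2 members, Dbp (2.17 ± 0.62, limma adjusted p = 0.209) and Nr1d1 (1.64 ± 0.73, limma adjusted p = 0.579). The same rule called 2304 of all 26709 genes in that fit. These markers themselves separate the groups, with sums of 6.97% to 24.3% of the GFP- mean in WT-GFP and 74.7% to 132% in GFP- cells. The covariate can therefore hardly be told from the group, and lost calls do not show a microglial share. Over all genes, those with a limma adjusted p under 0.05 went from 8520 to 0.

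**Figure D2:**
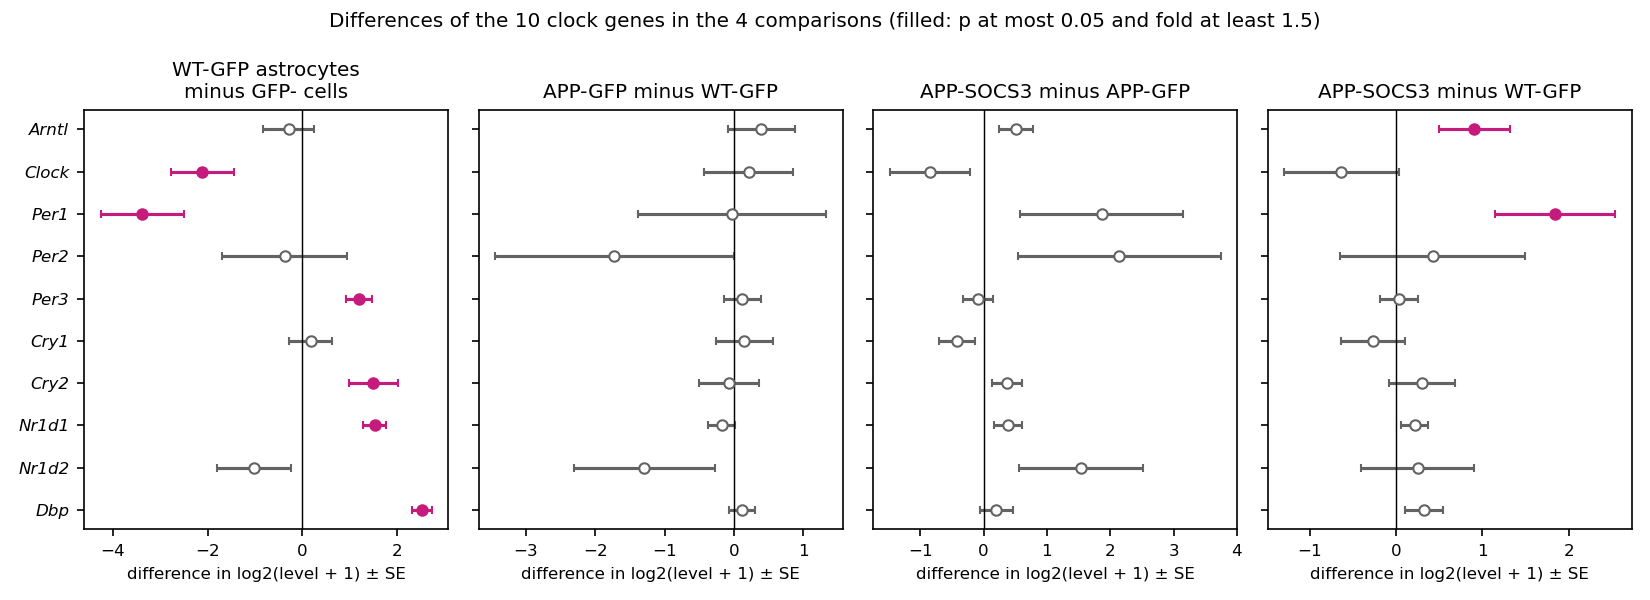
Difference in log2(level + 1) ± SE of the 10 clock genes in each comparison, the group named first minus the second. Filled points passed the rule on p and fold change. Between astrocytes and GFP- cells 6 members passed, 2 passed between APP-SOCS3 and WT-GFP, and none in the other comparisons by this rule.

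Around the core loop, 29 further clock genes (paralogues, ROR receptors, kinases, ubiquitin ligases and outputs) were examined. In the same comparison 2 of 29 were higher and 12 of 29 lower in astrocytes by the limma rule, beside 9.25% and 33.5% of all genes, with 7 below an adjusted p of 0.05, and their median difference was -0.78. With edgeR 4 were higher and 5 lower, beside 12.4% and 19.7% of all genes. Rorb, a ROR receptor that competes with REV-ERB for its sites, was higher, with 553 ± 353 against 85.0 ± 85.8 normalized reads (SD, n = 7 and 3, log2 difference 2.64 ± 1.05, limma adjusted p = 0.078). Bhlhe41 (Dec2), an E-box repressor, was higher at 1083 ± 286 against 640.4 ± 59.5 (0.72 ± 0.25, adjusted p = 0.046). Its paralogue Bhlhe40 was lower by the limma rule at 6108 ± 2265 against 10027 ± 2188 (-0.78 ± 0.30), beside a median of -1.31 over all genes. WT-GFP replicate 7 of Bhlhe40, at 10297, lay within the 8558 to 12541 of the GFP- cells, and edgeR did not call Bhlhe40 lower. Nfil3, the repressor that competes with DBP at D-boxes, averaged 202 against 1340 normalized reads. It was lower by the limma rule, with a log2 difference of -5.10 ± 1.99 and an adjusted p of 0.072, and edgeR did not call it lower. Nfil3 was at 0 in WT-GFP replicates 1 and 3, while replicate 2, at 966, lay within the 863 to 1664 of the GFP- cells. Tef and Hlf, the D-box activators most like Dbp, did not pass, with 0.27 ± 0.39 and -0.14 ± 0.53. Npas2, the substitute for Clock, also did not pass (0.64 ± 0.57). Csnk1e, a kinase of PER proteins, was lower by -1.66 ± 0.28, and Nampt, an enzyme of NAD synthesis under clock control, by -2.53 ± 0.25. Cdkn1a, a cell cycle inhibitor listed among clock outputs, was lower at 432 ± 135 against 5690.3 ± 1539 normalized reads.

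**Figure D3:**
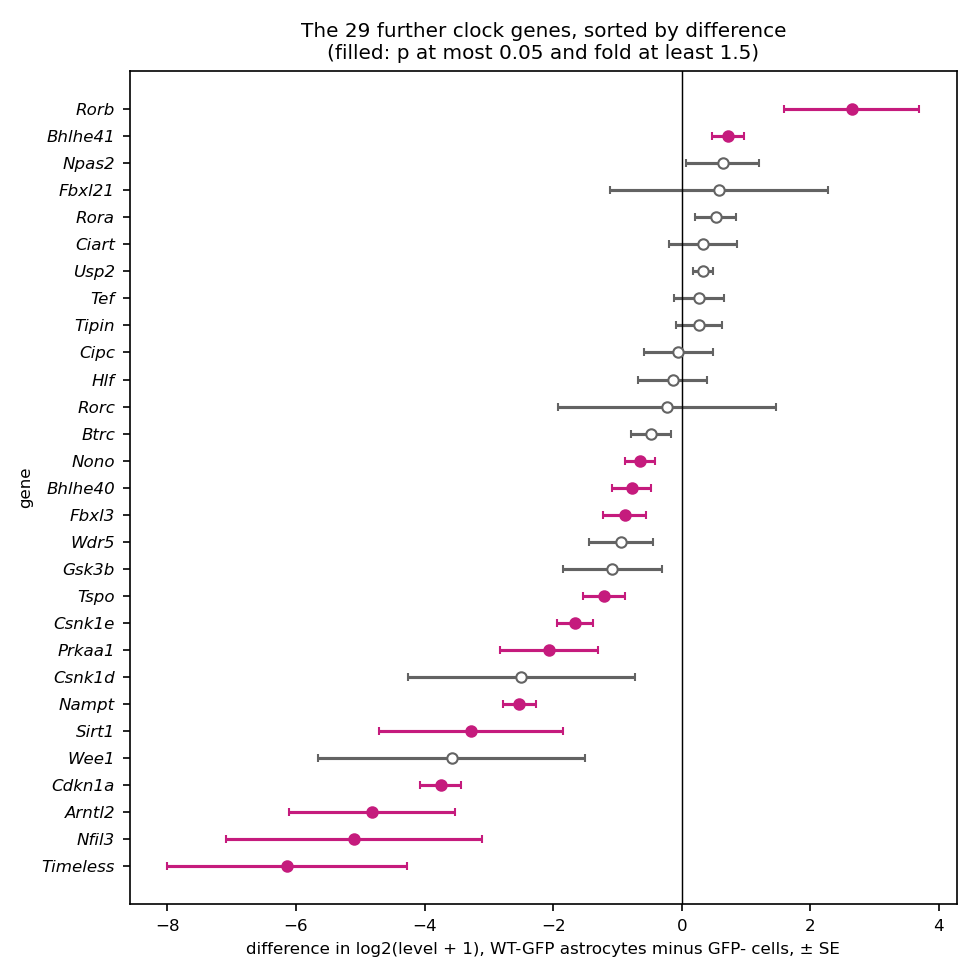
Difference in log2(level + 1) ± SE between WT-GFP astrocytes and GFP- cells for the 29 further clock genes, sorted. Filled points passed the rule. The 2 filled points at the right are Rorb and Bhlhe41, and the 12 on the left run from Nono at -0.65 to Timeless at -6.14.

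The second comparison asked whether clock genes differed between astrocytes of APP/PS1dE9 and wild-type mice. Genotype and hour of death cannot be told apart here, whether a gene differed or not. No member passed by limma, 0 of 10 against 2.23% of all genes, and none had an unadjusted p of 0.05 or lower in limma, edgeR or DESeq2, where limma gave 2.36% of all genes. Dbp was 1503, 1464, 1732 and 1206 normalized reads in APP-GFP, within or just above the WT-GFP range, with a difference of 0.12 ± 0.19 on the log2 scale and a 95% interval from -0.29 to 0.53. Nr1d1 was 7553, 4423, 4062 and 6708 normalized reads, with 2 samples below the lowest WT-GFP sample, and differed by -0.17 ± 0.20 (interval -0.60 to 0.25). Per3 differed by 0.12 ± 0.26 (interval -0.45 to 0.69). Arntl was 1065, 509, 739 and 1066 normalized reads in APP-GFP, all inside the WT-GFP range, and differed by 0.39 ± 0.48. Per1 was listed at 158, 0, 119 and 63 normalized reads, and Per2 at 633, 0, 109 and 431. Both were at 0 in APP-GFP replicate 2, where a count of 0 allows up to 3 reads, so their intervals were wide, from -2.96 to 2.91 for Per1 and from -5.44 to 1.99 for Per2. Without the 3 libraries that stand apart the difference of Per1 was 0.97 ± 0.58 (limma adjusted p = 1.000), in place of -0.02 with them. All 29 further clock genes missed the rule in limma and in edgeR. The balance of all genes called depended on the tool, with 382 higher and 131 lower in limma, 412 and 247 in edgeR and 205 and 325 in DESeq2.

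The third comparison asked whether clock genes differed between astrocytes of APP/PS1dE9 mice with and without SOCS3, with the same limit on the hour. Again 0 of 10 members passed by limma, against 5.7% of all genes, and no member had an unadjusted p of 0.05 or lower in limma, edgeR or DESeq2, where limma gave 6.27% of all genes. Over all genes limma called 532 higher and 769 lower, and edgeR 398 and 925. The median difference of the members was 0.38 on the log2 scale, beside 0.08 over all genes. Arntl came nearest: it was 1218, 908, 907, 1302 and 1579 normalized reads in APP-SOCS3 and 1065, 509, 739 and 1066 in APP-GFP. The groups overlapped, and the difference was 0.51 ± 0.27 with an interval from -0.07 to 1.10 (limma adjusted p = 0.814, exact permutation p = 0.127). Leaving out 1 sample brought 1 member past the rule in 4 of the cases. Arntl passed without APP-GFP replicate 1 (0.65) or replicate 4 (0.65), Cry1 without APP-GFP replicate 3 (-0.64) and Clock without APP-SOCS3 replicate 5 (-1.30). Over all genes these fits called, in that order, 1836 of 22905, 1724 of 22790, 1214 of 22720 and 1062 of 22839. Dbp was 1552, 1255, 2642, 2325 and 1137 normalized reads in APP-SOCS3, with samples above and below the whole APP-GFP range (0.20 ± 0.26). Nr1d1 was 5330.2, 7010.4, 6849.9, 9581 and 7885 normalized reads in APP-SOCS3, with 2 samples above the APP-GFP range, and differed by 0.39 ± 0.22. Of the 29 further clock genes Nfil3 (-2.57 ± 0.98) and Cdkn1a (-1.37 ± 0.40) were lower in APP-SOCS3, where 3.37% of all genes were. In the same comparison 9 of 10 microglia markers were lower, with summed levels of 5.49% to 9.58% of the GFP- mean in APP-SOCS3 and 10.1% to 40.6% in APP-GFP, and so were 13 of 15 immediate early genes. All 10 endothelial markers were lower too, with 0.600% to 3.54% in APP-SOCS3 against 3.22% to 17.4% in APP-GFP, as were 4 of 8 mural markers (1.59% to 2.75% against 2.88% to 14.4%) and 3 of 6 oligodendrocyte precursor markers (0.597% to 4.25% against 1.93% to 4.83%). Their part in the values of Nfil3 and Cdkn1a was not tested.

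The fourth comparison set APP-SOCS3 against WT-GFP, and it shares samples with the other three. Per1 and Arntl, 2 of 10 members, were higher in APP-SOCS3, beside 5.21% of all genes called and 3.19% called higher. The balance over all genes turned with the tool, with 733 higher and 464 lower in limma, 441 and 762 in edgeR and 340 and 824 in DESeq2. Per1 was 85.0, 94.9, 114, 210 and 128 normalized reads in APP-SOCS3, from 77 to 214 reads in a library. In 4 of 5 samples the level lay above the highest WT-GFP sample, and in the remaining sample above all but that. The difference was 1.84 ± 0.70 on the log2 scale (SE, n = 5 and 7, limma p = 0.0194, adjusted p = 0.759), and the exact permutation p was 0.00505. Counts gave 1.55 in edgeR and 1.54 in DESeq2, both past the rule on unadjusted p-values, as were 5.24% and 5.07% of all genes, with 1.92% called higher in edgeR. Arntl, with the APP-SOCS3 values given above, differed by 0.91 ± 0.42 (limma p = 0.0462, adjusted p = 0.873, exact permutation p = 0.0783), and neither edgeR nor DESeq2 called it.

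The calls depended on single libraries. Arntl lost its call without any 1 of WT-GFP replicates 2, 3 and 6 and APP-SOCS3 replicates 1, 4 and 5. Without the 3 libraries that stand apart, Per1 kept its call at 1.15 ± 0.44 (limma adjusted p = 0.634), Arntl lost it, and Cry1 was called lower at -0.66 ± 0.24 (limma adjusted p = 0.602), where 6.03% of all genes were called. Without APP-SOCS3 replicate 4, the highest for Per1, no member was called. The numbers of genes detected differed between these groups, 15575 to 25514 in WT-GFP and 22050 to 26757 in APP-SOCS3, and their part in the calls was not tested. In the same comparison 7 of 10 microglia markers were lower in APP-SOCS3, with 5.49% to 9.58% of the GFP- mean against 6.97% to 24.3% in WT-GFP, and 7 of 15 immediate early genes were lower. So were 7 of 10 endothelial markers, with 0.600% to 3.54% in APP-SOCS3 against 2.06% to 20.8% in WT-GFP, 4 of 8 mural markers (1.59% to 2.75% against 2.31% to 23.3%) and 2 of 6 oligodendrocyte precursor markers, and the part of these markers in the calls was not tested. With the microglia covariate neither member was called. Of 14 glucocorticoid-responsive genes, 0 were higher and 2 lower in APP-SOCS3. The background for the lists in this comparison is 733 genes called higher and 464 lower of 22958 tested. The part of glucocorticoids in the call of Per1 was not tested. Per2 and Per3 did not pass, with 0.42 ± 1.07 and 0.04 ± 0.22. Dbp differed by 0.32 ± 0.22, and Nr1d1 by 0.22 ± 0.16.

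Ordered by mean, Dbp, Cry2, Nr1d1 and Per3 had the GFP- cells lowest of the 4 groups, with no overlap between them and the next group, which was APP-GFP for Cry2 and Nr1d1 and WT-GFP for Dbp and Per3. For Cry2, WT-GFP replicate 2 alone lay within their range. Clock had them highest, with no overlap with APP-GFP as the next group. Per1 also had them highest, yet the lowest GFP- sample at 194 overlapped the highest APP-SOCS3 sample at 210. Arntl, Per2, Cry1 and Nr1d2 had neighbouring groups whose ranges overlapped at every step.

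Because the hour of death is not given, the members were next compared sample by sample inside the groups. Group means were removed from log2(level + 1) in the 16 GFP+ samples, and 17 relations were computed, those of Arntl and Dbp with the other members, with permutations within groups. Dbp and Arntl, whose rhythms run in opposite phase, had r = -0.32 (permutation p = 0.115) and rho = -0.41 (p = 0.0945), and without the 2 samples farthest in Arntl r was -0.21. This relation did not pass. In the 7 WT-GFP samples alone r was -0.52 (exact permutation p = 0.218), and without the 3 libraries that stand apart it was -0.24 (n = 13, permutation p = 0.333). Without APP-SOCS3 replicate 2 it reached -0.41 (permutation p = 0.0466), and without any other single sample it stayed above the threshold.

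With the other 8 members r to Arntl was above 0, and its permutation p was below 0.05 for 3 of them, Nr1d2, Per1 and Nr1d1. The REV-ERB genes Nr1d1 and Nr1d2 thus rose with Arntl, although around the clock they peak at the opposite phase. The cause was not tested. The median r to Arntl over 10236 genes was itself 0.17. With the replicate number as a block, r was below 0 for Clock, Per3, Cry2 and Nr1d1, though the labels do not tie these numbers to animals. With Nr1d2 r was 0.71 (permutation p = 0.00254; rho = 0.74, p = 0.00177), and 0.81 without the 2 farthest samples. The slope of Nr1d2 on Arntl was 1.62 ± 0.41 (limma adjusted p over all genes = 0.0399), where 4.36% of all genes had an adjusted p under 0.05 and 25% an unadjusted p of at most 0.05. With Per1 r was 0.60 (permutation p = 0.00359; rho = 0.55, p = 0.0202) and with Nr1d1 it was 0.54 (permutation p = 0.0154; rho = 0.50, p = 0.0308), both above an adjusted p of 0.05 in limma (0.115 and 0.175). The others, from 0.41 for Clock to 0.56 for Cry1, had permutation p-values of r from 0.0667 to 0.213. Without the 3 libraries that stand apart r was 0.74 for Nr1d2, 0.24 for Per1, 0.39 for Nr1d1, 0.76 for Cry2 and 0.58 for Per3 (n = 13), with permutation p-values of 0.0288, 0.470, 0.103, 0.0148 and 0.0394.

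Dbp was related negatively to Clock, with r = -0.60 (permutation p = 0.0159) and rho = -0.60 (p = 0.0126). The slope did not pass over all genes (-1.88 ± 0.74, limma adjusted p = 0.996), where 3.26% of genes had an unadjusted p of at most 0.05. Leaving out the 2 samples farthest in Dbp, r was -0.32, so over the 16 samples the relation rested in part on those samples. Leaving out 1 sample gave r from -0.80 to -0.46. Without the 3 libraries that stand apart r was -0.81 (n = 13, permutation p = 0.0012), and -0.59 without the 2 farthest of those. In the 7 WT-GFP samples alone r was -0.28, and -0.82 without the 2 farthest. With the other members, r to Dbp lay between -0.39 for Cry1 and -0.02 for Per1, and it was -0.10 for Nr1d1 and -0.09 for Per3. Without the 3 libraries that stand apart r to Dbp was -0.67 for Per2 (n = 13, permutation p = 0.0363; rho = -0.59, p = 0.0679). It was 0.37 for Per1 there (permutation p = 0.242), and the rest of these members also had a permutation p of r above 0.05.

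**Figure D4:**
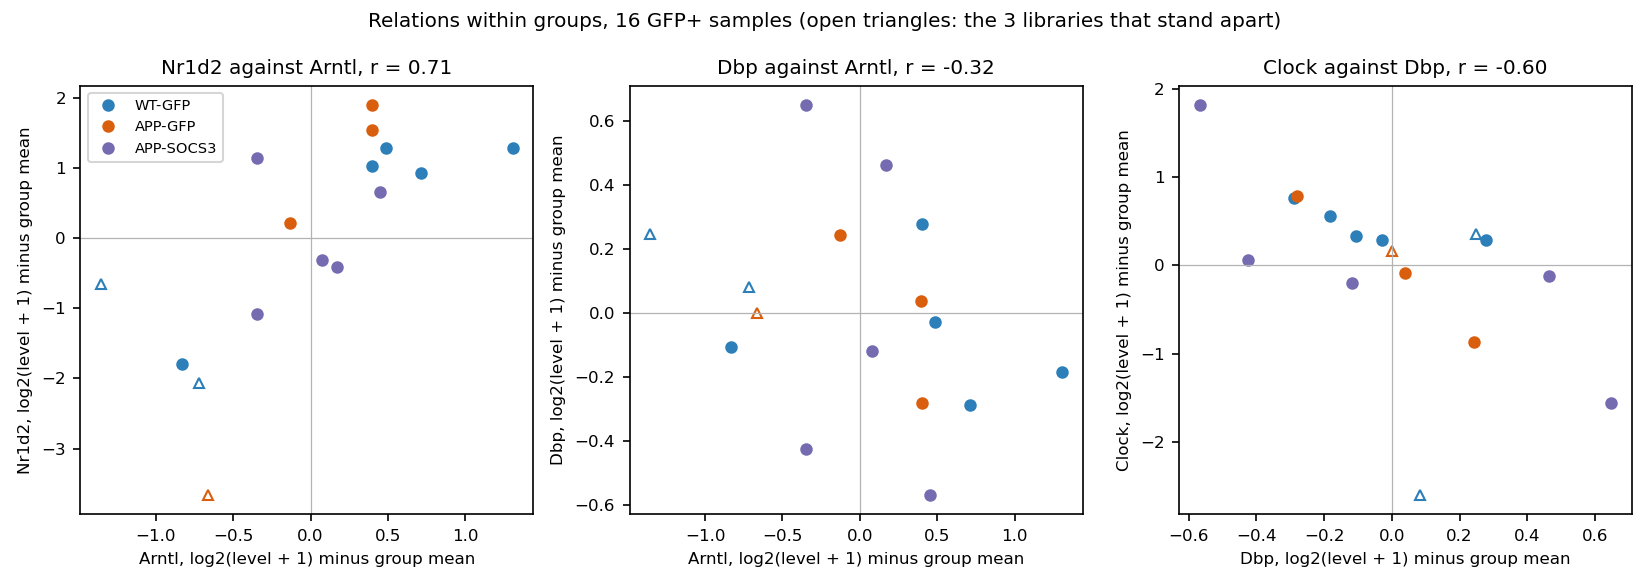
Log2(level + 1) minus the group mean in the 16 GFP+ samples, for Nr1d2 against Arntl, Dbp against Arntl and Clock against Dbp. Open triangles are the 3 libraries that stand apart. The first panel slopes upward (r = 0.71), the second has r = -0.32 and the third r = -0.60.

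The number of genes detected moved with several members in the same samples. Against its log2 value within groups, r was 0.84 for Per1 (permutation p = 0.00174; rho = 0.75, p = 0.00325), 0.75 for Arntl (p = 0.00611; rho = 0.69, p = 0.0241), 0.63 for Nr1d2 (p = 0.0379; rho = 0.59, p = 0.037) and 0.57 for Per2 (p = 0.0656; rho = 0.45, p = 0.0956). Their r without the 2 farthest samples was 0.61, 0.60, 0.43 and 0.58. In limma the slopes of Per1 and Arntl passed over all genes (adjusted p = 0.0084 and 0.0246), as did 9.06% of all genes. For Nr1d1 r was 0.49 (p = 0.0735; rho = 0.54, p = 0.0345), and 0.41 without the 2 farthest samples. Dbp had r = -0.10 and Per3 r = 0.12 with genes detected. Without the 3 libraries that stand apart r was 0.27 for Per1, 0.41 for Arntl, 0.02 for Nr1d2 and 0.08 for Per2 (n = 13). For Cry2 r was 0.35 over 16 samples and 0.72 over 13 (permutation p = 0.0229, the lowest of the 10 relations without those libraries). The part of library quality in the relations with Arntl was not tested.

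**Figure D5:**
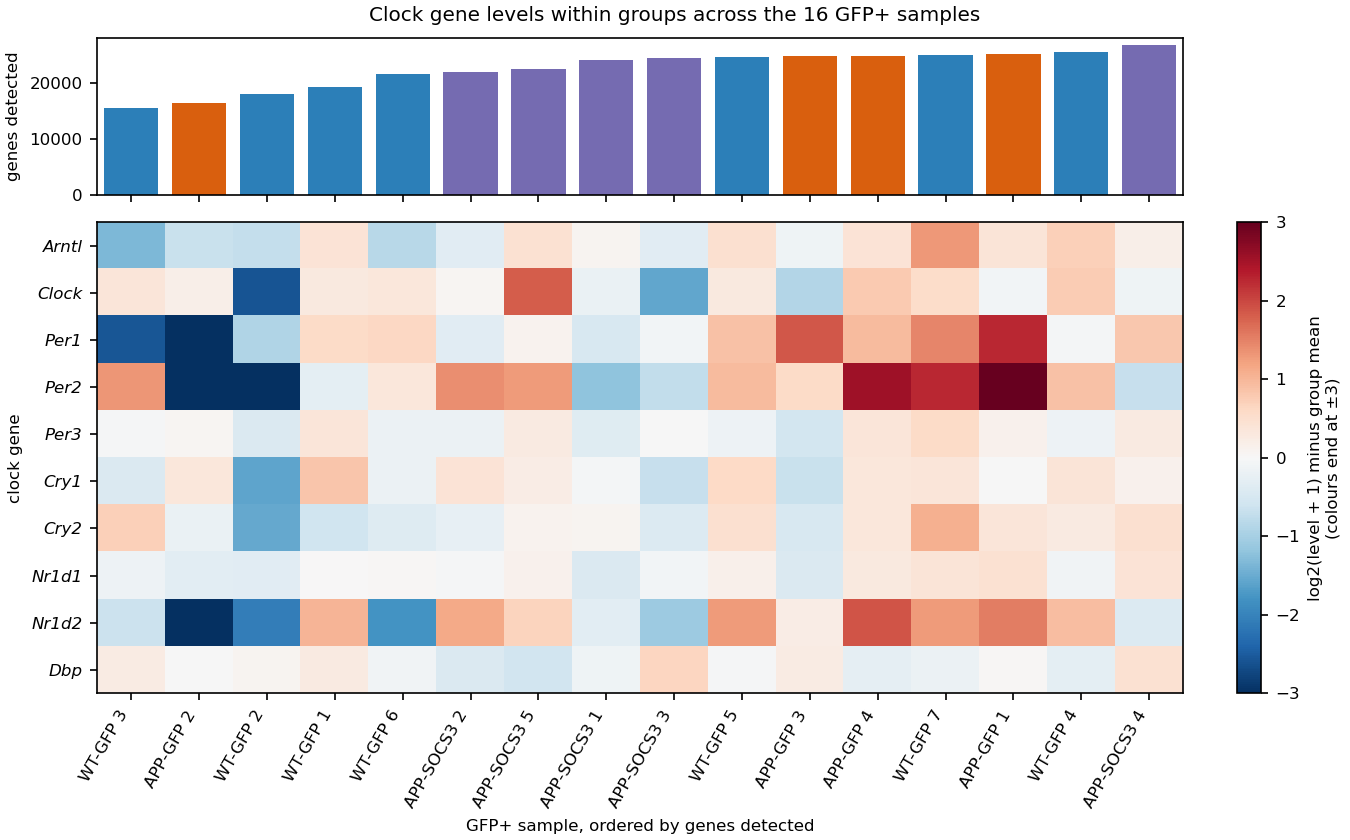
Genes detected (bars) and log2(level + 1) of each clock gene minus its group mean (colours, ending at ±3) in the 16 GFP+ samples, ordered by genes detected. Arntl, Per1 and Nr1d2 are low in the 3 libraries at the left, which stand apart, while Dbp, Nr1d1 and Per3 vary little.

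Over the 16 samples, 10236 genes whose mean level reached 100 were ranked by r to Arntl and to Dbp, as a description with no test. Most like Arntl were Zfat (r = 0.92), Dhtkd1 (0.92), Avl9 (0.91), Zfp605 (0.90) and Gabbr2 (0.90), and most opposite were Yipf1 (-0.93), Isoc2b (-0.92), Psmc5 (-0.91), Dnttip1 (-0.90) and Pbdc1 (-0.90). Most like Dbp were Pdap1 (0.78), Mrpl16 (0.78), Acadl (0.76), Gnai2 (0.75) and Ptpa (0.75), and most opposite were Brf1 (-0.81), Apc (-0.74), Rad1 (-0.74), Arfgap2 (-0.72) and Cul2 (-0.71). No clock gene stood among either 5 at these ends. These samples share the sort, the library kit and the spread in genes detected.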

How the data were processed

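RNA of FACS-sorted hippocampal cells was amplified with the SMARTer v4 low-input kit, tagmented with Nextera XT and sequenced from both ends. Per the labels and the methods, the authors aligned reads with STAR 2.4.0 to mm10, counted those on constitutive regions of FAST DB genes and scaled them with DESeq2. The deposited signal values are these scaled read counts, with 19 columns and 1 table. Whole reads were recovered from them (100% of values within 0.01 of a whole multiple) for the count tests.

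Members and lists were chosen with earlier results of these data known. limma 3.58.1 with a mean-variance trend was fitted on log2(level + 1) to the samples of the groups compared, leaving out genes whose mean stayed under 10 in each of the groups, with Benjamini-Hochberg adjustment. edgeR 4.0.16 (quasi-likelihood, TMM), DESeq2 1.42.0, pseudocounts of 0.1 and 10, other minimum levels, equal totals, a microglia covariate, all 19 samples in 1 fit and leaving out samples were alternatives. Exact permutation tests were two-sided, and relations used 100000 permutations within groups, or all orders where n was 7. All 10 members are named, and further clock genes only where called or direct relatives of a member; for likeness, 5 genes at each end. Fits were tested on simulated data. Gene lengths came from GENCODE M21 (GRCm38) and promoters from RefSeq.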

Additional observations from a re-analysis of the deposited data

Results flagged for a closer look

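Groups of 4 to 7 GFP+ samples were examined for a sample far from the others on log2(level + 1), 30 groups over the 10 members, and chance flags about 1 in 20. Both samples found were WT-GFP replicate 2, a library that stands apart. Clock was at 23.8 normalized reads there, and its gap to the nearest sample took up 0.858 of the range of the group. Per2 was at 4.54 normalized reads there, with a gap of 0.671 of the range; the critical value for 7 samples is 0.568.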

How the results depend on the processing

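The 6 members that set astrocytes apart from GFP- cells were again 6 under every other pseudocount, minimum level and scaling and with all 19 samples in 1 fit, and leaving out 1 sample gave 5 or 6. The microglia covariate, which can hardly be told from the group here, left 2 of them called. Between APP-GFP and WT-GFP no alternative called a member. Between APP-SOCS3 and WT-GFP the 2 calls became 1 with equal totals, all 19 samples in 1 fit, edgeR, DESeq2 or a fold change of 2, and 0 with the microglia covariate or an adjusted p under 0.05, and they ran from 0 to 2 over samples left out, beside 0 to 1 between APP-SOCS3 and APP-GFP. The cause of these changes was not tested. Per1 rested on few reads, with 0 to 214 in GFP+ libraries. APP-GFP replicate 2, with 0 reads of Per1, held 25701566 reads in all, and the part of depth was not tested.

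Counts of all genes called moved by over 1.5 times in a few settings. Between astrocytes and GFP- cells 11419 genes became 6709 with a minimum level of 100, where 15364 genes were tested, and 2304 with the microglia covariate. Between APP-GFP and WT-GFP 513 became 817 with no minimum, 123 with a minimum of 100, 991 with all 19 samples in 1 fit, 270 with the covariate and 1 at an adjusted p under 0.05. Between APP-SOCS3 and APP-GFP 1301 became 650 with a minimum of 100, 552 with the covariate and 1 at an adjusted p under 0.05, and between APP-SOCS3 and WT-GFP 1197 became 441 with that minimum and 7 at that adjusted p. Leaving out samples gave 8838 to 11679, 393 to 677, 1052 to 1836 and 904 to 1435 genes in the 4 comparisons.

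The labels do not say whether a replicate number marks a shared animal. Deviations of samples with the same number correlated at -0.18 to 0.24 over the 4 comparisons, and in none of them were all pairs above 0.1, so the numbers were not used as pairs. Whether animals were shared was not tested. With the replicate block, 5, 0, 1 and 2 members were called, Cry2 being lost between astrocytes and GFP- cells and Clock (-1.30) gained between APP-SOCS3 and APP-GFP. Over all genes the block gave 10999 of 26709, 663 of 22969, 1132 of 22844 and 1433 of 22958 called. The block left the relation of Dbp to Arntl at -0.069 and turned those of Arntl with Clock (-0.23), Per3 (-0.30), Cry2 (-0.55) and Nr1d1 (-0.14) and those of Dbp with Per1 (0.027), Per3 (0.24) and Nr1d1 (0.34).

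Members that were not called changed sign in several settings. Between astrocytes and GFP- cells these were Arntl (0.23) and Per2 (0.80) in edgeR, Arntl (0.59), Per2 (0.036) and Nr1d2 (1.03) with the microglia covariate, Arntl (0.12) and Per2 (0.45) without the 3 libraries that stand apart, Per2 (0.57) in DESeq2, Cry1 (-0.21) under the replicate block. Between APP-GFP and WT-GFP they were Clock (-0.29), Per1 (0.97) and Cry1 (-0.37) without the 3 libraries that stand apart, Per1 (0.46) with a pseudocount of 10, Per1 (1.01) in edgeR, Per1 (0.95) in DESeq2, Per1 (0.71) and Cry2 (0.22) under the replicate block, Per1 (0.70) and Nr1d1 (0.0059) with the microglia covariate. Between APP-SOCS3 and APP-GFP they were Arntl (-0.25), Per1 (-0.90), Per2 (-1.995), Cry2 (-0.31), Nr1d1 (-0.36) and Nr1d2 (-0.74) with the microglia covariate. Between APP-SOCS3 and WT-GFP they were Per2 (-0.052) and Nr1d2 (-0.020) in edgeR, Per2 (-0.065) and Nr1d2 (-0.035) in DESeq2, Per2 (-0.40), Per3 (-0.057) and Nr1d2 (-0.29) without the 3 libraries that stand apart, Per3 (-0.30) with the microglia covariate. Over samples left out, Per2 ran from -0.75 to 0.54 between astrocytes and GFP- cells. Between APP-GFP and WT-GFP Clock ran from -0.22 to 0.51, Per1 from -0.78 to 1.66, Per2 from -2.76 to 0.35, Per3 from -0.0023 to 0.31, Cry1 from -0.11 to 0.38 and Cry2 from -0.33 to 0.11. Per3 ran from -0.27 to 0.038 between APP-SOCS3 and APP-GFP. Between APP-SOCS3 and WT-GFP Per2 ran from -0.49 to 0.80, Per3 from -0.035 to 0.13 and Nr1d2 from -0.092 to 0.52.

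The relation of Dbp to Arntl kept its sign in every setting and lay between -0.41 and -0.24 over samples left out. Relations of Dbp near 0 changed sign, those with Per1 with a pseudocount of 10 (0.019), equal totals (0.063), group means kept (0.16) and without the 3 libraries that stand apart (0.37), with Per3 under equal totals (0.029) and in the WT-GFP samples alone (0.031), and with Nr1d1 under equal totals (0.030) and with group means kept (0.046). Over samples left out these ran from -0.094 to 0.077, from -0.22 to 0.044 and from -0.32 to 0.0043. The libraries to leave out were chosen after seeing the data.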
